A study of Mus musculus with 20 samples.

Results

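The endothelial and angiogenic genes described here are 10: Vwf, Pecam1, Cdh5, Kdr, Flt1, Tek, Tie1, Egfl7, Nos3 and Vegfa. They were taken as every probe that the scanner files name after one of them, which gave 16 of the 39429 probes on the array, with all 10 genes represented and 5 of them by several probes. Of the 16 probes, 14 were well above the local background on at least 10 of the 20 arrays and were tested, as were 19206 probes in all. In quadriceps muscle of mice from mothers fed a high-fat diet, Vwf had the lowest value of these genes relative to mice from mothers fed a low-fat diet, with a log2 difference of -0.25, while the other 8 endothelial genes differed by 0.023 on average. Nos3 and Vegfa were the members with the most positive differences, at 0.19 and 0.18. No probe of the 10 genes passed the threshold of adjusted p 0.05 in the fit across all probes.

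Blood vessels are lined by endothelial cells, and in skeletal muscle most of these cells form the capillaries that bring oxygen and fuel to the fibres. VEGFA, which muscle fibres secrete, binds the receptor tyrosine kinases FLT1 and KDR on endothelium, and a second pair of receptor kinases, TEK and TIE1, keeps vessels stable under the angiopoietins. PECAM1 and VE-cadherin (Cdh5) hold endothelial cells together, EGFL7 is a protein they secrete, endothelial nitric oxide synthase (Nos3) relaxes the vessel wall, and von Willebrand factor (Vwf) is stored in Weibel-Palade bodies and tethers platelets at sites of injury.

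Total RNA came from quadriceps, a thigh muscle, of male C57BL/6J mice killed at 6 weeks of age after 2 h without food. In the group called mHFD the dam, 8 weeks old at the start, had eaten a diet with 40% of its energy as fat, 23% as protein and 37% as carbohydrate. In the group called mLFD the dam's diet had 10% of its energy as fat, 23% as protein and 67% as carbohydrate. Both diets began 3 days before mating and lasted through pregnancy and lactation, after which all sons of both groups were caged singly on the low-fat diet, so the groups differ in the mother's diet and not in their own diet after weaning. Each group held 10 mice with 1 array each. Litters were set to 5 to 7 pups and a group could hold as many as 4 siblings. The litters are not labelled, so mice of a group may be related and p-values may be too small. Sample RNA carried Cy5 and was hybridised beside a Cy3 pool made from all samples, with no dye swap. A value is the log2 ratio of sample to pool, and a difference is mHFD minus mLFD. The 20 arrays lay on 5 slides, each with mHFD in positions 1 and 3 and mLFD in positions 2 and 4. Slide and group are therefore balanced, and an effect of odd against even positions cannot be told apart from the group. In RNA from whole muscle, fewer cells of a type and less RNA per cell cannot be told apart.

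Across the whole array 1 of 19206 tested probes passed adjusted p 0.05 in limma (0.00521%), and 7.14% had an unadjusted p under 0.05, 4.03% higher in mHFD and 3.11% lower. In the signal of the Cy3 pool alone, 8.17% of these probes had an unadjusted limma p under 0.05 between the arrays of the groups. A share of this size was thus also reached where the RNA was the same on all arrays. The probes well above background numbered 15506 to 23410 per array, with means of 18977 in mHFD and 19531 in mLFD. The median difference over all tested probes was 0.0030. The muscle genes Acta1 and Ckm were well above background on all 20 arrays. Of the endothelial members each had at least 1 probe above background on 19 or 20 arrays.

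The probes decide which transcript a value reports, so the sequences behind the results below are shown as the first 30 of their 60 bases, 5′ to 3′, as deposited in the scanner files. The Vwf result rests on a single probe, A_51_P103397, which the files place on the plus strand at chr6:125636551-125636610 of build mm9. The only other Vwf probe, A_55_P2169659, is designed to another transcript model (ENSMUST00000112253) whose probe starts 94445 bases away, at chr6:125542106-125542165, and it was above background on 0 of 20 arrays. Nos3 has a pair of probes that gave different sizes of difference, and the first Nos3 probe below is the brighter one.
Vwf A_51_P103397: caagtgaggcctgtgcagctacagcggatt
Vwf A_55_P2169659: tagttaaacagaacaacagtgaagggcgga
Nos3 A_55_P2034027: tgtagactccctttaactctctctctggag
Nos3 A_51_P139651: gatcagcaacgctaccacgaggacattttc
The brighter Nos3 probe (plus strand, chr5:23890038-23890097) holds a stop triplet in all 3 reading frames, so it cannot lie in coding sequence along its whole length. Its dimmer partner, at chr5:23889636-23889695, has 2 frames without a stop. The pair starts 402 bases apart, and the longest run of bases that both share is 5. Exons and UTRs are not assigned, because gene models of mm9 were not used here.

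Flt1 has 3 probes in different places of the gene on the minus strand of chromosome 5, each designed to a different transcript record. They are shown because receptor transcripts of different length could be read separately by them.
Flt1 A_51_P398723: aagtaaagaaaagctatcgggattctctgg
Flt1 A_55_P2166282: ggagggtactgccgttcctgtgtggtattt
Flt1 A_52_P405145: tccctatcccaactacacattcaatcttct
The first, for NM_010228, lies at chr5:148373791-148373850, the second, for ENSMUST00000110529, at chr5:148446872-148446931, and the last, for AK005502, at chr5:148465976-148466035. The third was well above background on 7 of 20 arrays and was not tested.

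The receptors Tek and Tie1 are paralogues, and their probes (Tek at chr4:94540624-94540683, plus strand, and Tie1 at chr4:118144132-118144191, minus strand) overlap in sequence. The best ungapped match of 30 bases between them runs from base 8 to 37 of the Tek probe and from base 11 to 40 of the Tie1 probe, with 24 identical bases. The 6 bases that differ are in capitals.
Tek: cActgtAtgagaaGttTacctatgcAggAa
Tie1: cGctgtTtgagaaCttCacctatgcGggCa
How far each probe also binds the other receptor's transcript was not tested.

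Vwf encodes the large glycoprotein that endothelial cells store and release to capture platelets. In mHFD its log2 ratio ran from -0.44 to 0.24 with a median of -0.11, and in mLFD from -0.066 to 0.36 with a median of 0.14. The groups overlapped, although 8 of 10 mHFD arrays lay below the mLFD median, 6 lay below the lowest mLFD array and 4 mLFD arrays lay above the highest mHFD array. Vwf averaged -0.083 ± 0.21 (SD, n = 10) in mHFD, and the mLFD mean was 0.17 ± 0.15 (SD, n = 10). The difference of -0.25 (SE 0.078, 95% interval -0.41 to -0.087) corresponds to a level 1.19-fold higher in mLFD, with an interval of 1.06 to 1.33. Its unadjusted limma p was 0.0042, at rank 105 of 19206 probes, and its p adjusted over all probes was 0.68.

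Within each of the 5 slides the Vwf mean was lower in mHFD, by log2 differences from -0.48 on slide 4 to -0.078 on slide 3. Over all tested probes 5.59% were lower in all 5 slides. The Cy3 pool was the same on all arrays, and its Vwf signal differed by 0.038 (SE 0.031, unadjusted limma p = 0.24). Vwf also moved with position on the slide: among arrays of the same group and slide, the later position had the higher Vwf ratio in 8 of 10 pairs, by 0.20 on average in mHFD (position 3 over 1) and by 0.16 in mLFD (position 4 over 2). With position as a linear covariate the Vwf difference was -0.16 (unadjusted limma p = 0.054, adjusted p = 0.98), which is smaller by more than 1.5 times. With each array centred on its median in place of loess the Vwf difference was -0.25 but its unadjusted limma p was 0.28.

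**Figure D1:**
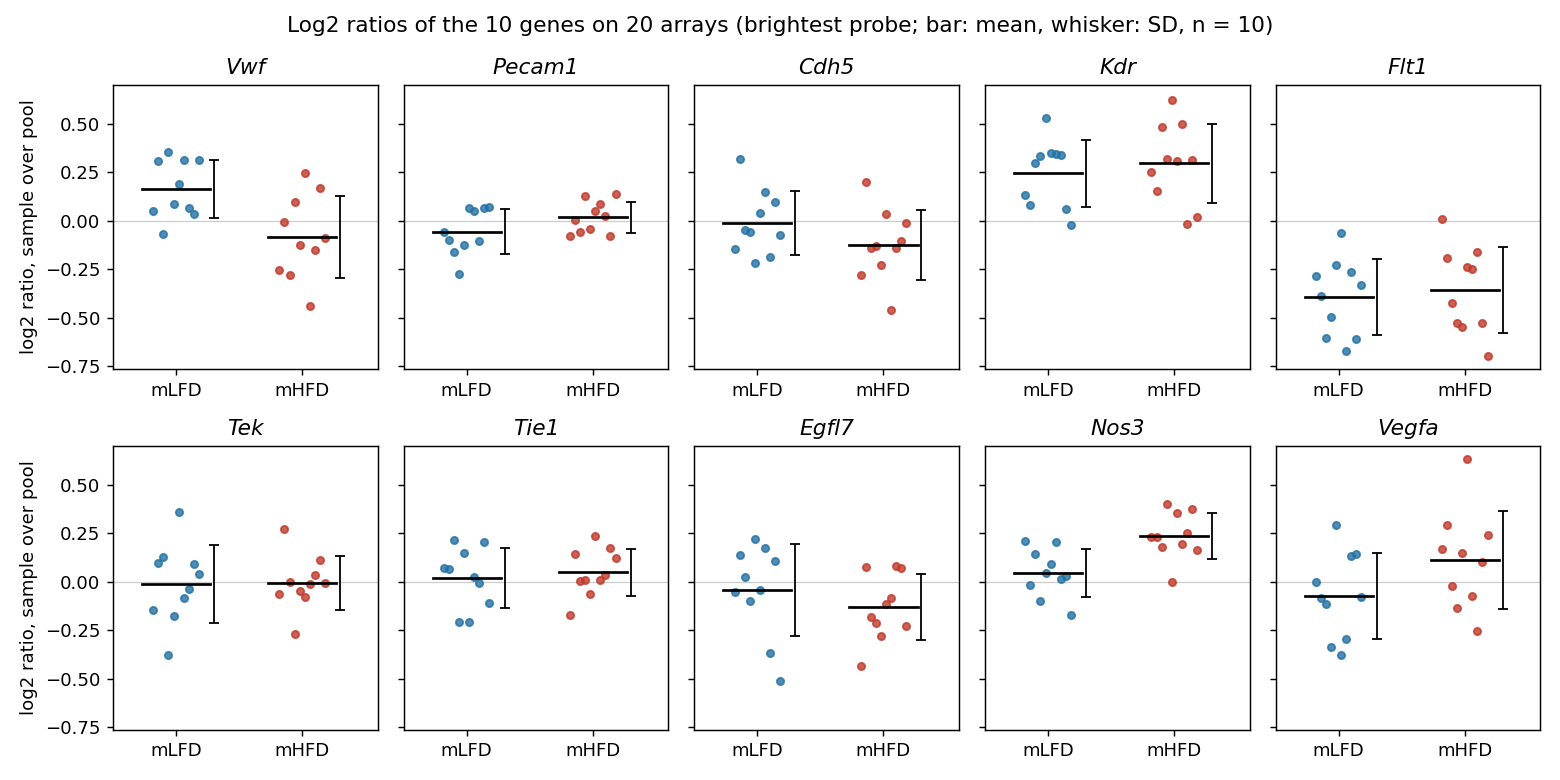
Log2 ratio of sample to pool (vertical axis) for the brightest probe of each of the 10 genes, with 1 point per array for mLFD (blue) and mHFD (red), the group mean as a bar and the SD as a whisker, n = 10 per group. The mHFD and mLFD points overlap for every gene; the Vwf mean is lower in mHFD (-0.083 against 0.17) and the Nos3 mean is higher (0.24 against 0.045).

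The 8 other endothelial genes served to ask whether the low Vwf values were shared by endothelial transcripts in general. For each array the mean log2 ratio of Pecam1, Cdh5, Kdr, Flt1, Tek, Tie1, Egfl7 and Nos3 was taken from that of Vwf. Vegfa was left out of this mean because its product is a secreted ligand that muscle fibres make. Vwf minus this mean ran from -0.44 to 0.18 in mHFD (median -0.085) and from -0.065 to 0.52 in mLFD (median 0.13). Of the 10 mHFD arrays, 7 were below the mLFD median and 5 were below the lowest mLFD array. The mHFD mean was -0.081 ± 0.19 (SD, n = 10) and the mLFD mean 0.19 ± 0.19 (SD, n = 10). They differed by -0.27 (SE 0.086, two-sided permutation p = 0.0050, 100000 resamples).

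The mean of the 8 genes itself was -0.0022 ± 0.062 (SD, n = 10) in mHFD, and the mLFD value was -0.025 ± 0.077 (SD, n = 10). Of the -0.27, therefore, -0.25 was the Vwf difference. Vwf had been singled out with earlier results of these arrays known, so this p is not independent evidence. The difference in Vwf minus the mean was negative on all 5 slides, from -0.52 on slide 4 to -0.026 on slide 3. With position as a covariate it was -0.18 (permutation p = 0.045), again smaller by more than 1.5 times. The ratio at the later position was higher in 8 of 10 pairs for Vwf minus the mean and in 5 of 10 pairs for the mean of the 8 genes.

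**Figure D2:**
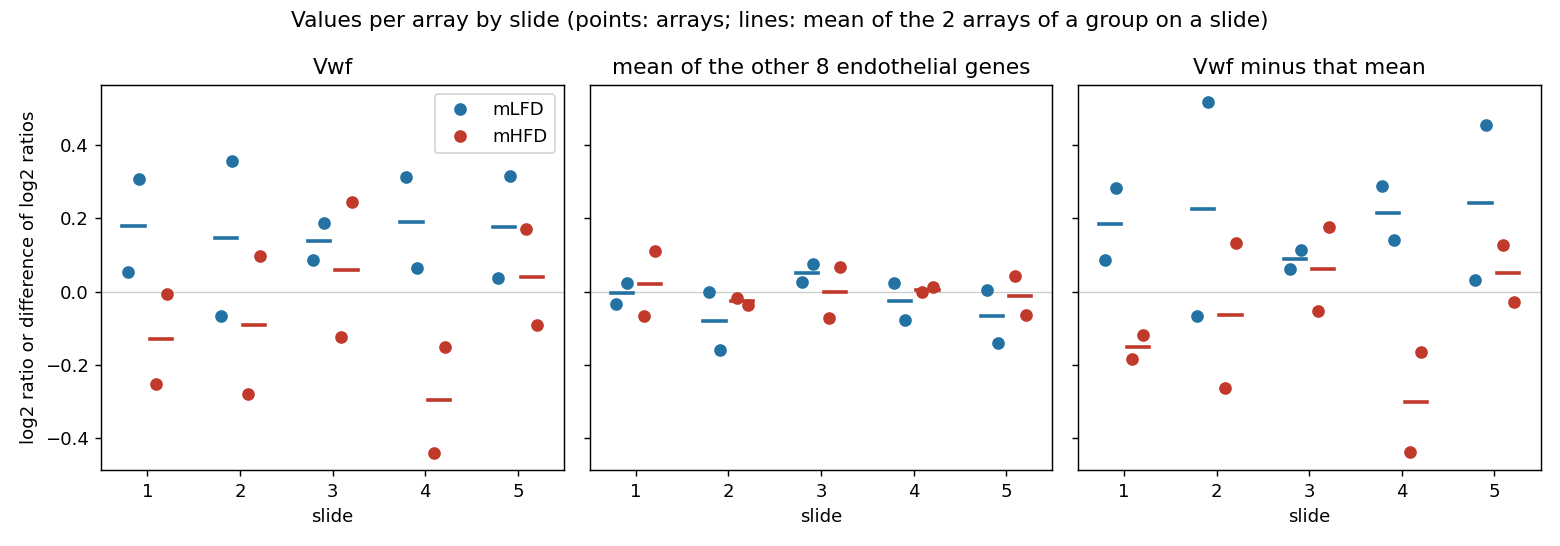
Log2 ratio of Vwf, the mean log2 ratio of the other 8 endothelial genes and the difference of both (vertical axis) by slide (horizontal axis), with 1 point per array and a line at the mean of the 2 arrays of a group on a slide, mLFD in blue and mHFD in red. Vwf minus the mean is lower in mHFD on every slide, by -0.026 on slide 3 and by -0.52 on slide 4, while the mean of the 8 genes stays between -0.16 and 0.11 on all arrays.

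Against each of the 8 genes in turn, Vwf had the lower group difference in all 8 comparisons. The difference of differences was -0.44 against Nos3 (permutation p = 0.00016, Benjamini-Hochberg value over the 8 comparisons 0.0013), -0.32 against Pecam1 (0.0017 and 0.0067) and -0.28 against Tie1 (0.014 and 0.037). These 3 comparisons remained under 0.05 after the adjustment, out of 6 under 0.05 before it. The Nos3 comparison used the brighter Nos3 probe, which itself differed by 0.19, while the second Nos3 probe differed by 0.060. Against the receptors Kdr, Flt1 and Tek the values were -0.30, -0.29 and -0.25, with adjusted values of 0.065, 0.066 and 0.066. Against Egfl7 it was -0.16 (permutation p = 0.20) and against Cdh5 it was -0.14 (permutation p = 0.082), so 5 of the 8 genes, Kdr, Flt1, Tek, Egfl7 and Cdh5, were not separated from Vwf after the adjustment. All 8 comparisons share the Vwf values.

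Pecam1 and Cdh5 encode adhesion molecules of the contacts between endothelial cells. Pecam1 ran from -0.078 to 0.14 in mHFD (median 0.016) and from -0.27 to 0.070 in mLFD (median -0.077), and its difference was 0.074 (SE 0.048, adjusted p = 0.73 in limma). Its mHFD arrays lay in the upper part of the mLFD range and just above it. Its probe was above background on 19 of 20 arrays, and its spread within groups, an SD of 0.10, was the smallest of the 10 genes. Cdh5 ran from -0.46 to 0.20 in mHFD (median -0.13) and from -0.22 to 0.32 in mLFD (median -0.051), with a difference of -0.11 (SE 0.074, adjusted p = 0.73 in limma). Most Cdh5 arrays of both groups shared 1 range, and the mHFD mean was lower on all 5 slides, as it was for Vwf and for 5.59% of all tested probes. With Cy5 alone Pecam1 was at -0.0075 and Cdh5 at -0.049, and with position as a covariate Cdh5 was at -0.045.

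Kdr and Flt1 encode the VEGF receptors, KDR being the main signalling receptor of VEGFA in endothelium and FLT1 binding VEGFA tightly with weaker kinase signalling. Kdr ran from -0.015 to 0.63 in mHFD (median 0.31) and from -0.022 to 0.53 in mLFD (median 0.32), and its difference was 0.050 (SE 0.080, 95% interval -0.12 to 0.22). The groups covered nearly the same range. Its other probe, printed 10 times on the array and 1086 bases away, gave -0.062 (SE 0.11), so the sign of Kdr depended on the probe. The Kdr sign also turned with the scanner's own log ratio, with Cy5 alone, with position as a covariate and with the mean of both probes.

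Flt1 ran from -0.70 to 0.012 in mHFD (median -0.34) and from -0.67 to -0.060 in mLFD (median -0.36), with a difference of 0.038 (SE 0.088, 95% interval -0.14 to 0.22). The lowest and highest values of the groups lay close together. The probe for ENSMUST00000110529 gave 0.086 (SE 0.086, adjusted p = 0.82 in limma). The Flt1 difference had both signs among slides, from -0.25 on slide 3 to 0.26 on slide 4. Its pool signal in Cy3 differed between the groups' arrays by 0.12 (unadjusted limma p = 0.040), where 8.17% of probes in that channel had an unadjusted p under 0.05. With Cy5 alone, the scanner software's processed sample signal without division by the pool, the Flt1 difference was 0.22 (unadjusted limma p = 0.049, adjusted p = 0.68), more than 5 times the value of the ratio.

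Tek encodes TIE2, the receptor of the angiopoietins, and Tie1 encodes its partner receptor, which modulates TIE2. Tek ran from -0.27 to 0.27 in mHFD (median -0.011) and from -0.38 to 0.36 in mLFD (median 0.000084), with a difference of 0.0041 (SE 0.074, 95% interval -0.15 to 0.16). Tie1 ran from -0.17 to 0.23 in mHFD (median 0.022) and from -0.21 to 0.21 in mLFD (median 0.043), with a difference of 0.030 (SE 0.062, 95% interval -0.098 to 0.16). For both receptors the ranges of the groups coincided almost fully, and the sign was not stable: Tek turned negative with median centring and without slide 1 or slide 4, and Tie1 turned negative with the scanner's log ratio and with Cy5 alone.

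Egfl7, whose product is secreted by endothelial cells into the matrix around growing vessels, ran from -0.44 to 0.080 in mHFD (median -0.15) and from -0.51 to 0.22 in mLFD (median -0.0092). Its difference was -0.090 (SE 0.087, adjusted p = 0.81 in limma). The lowest array belonged to mLFD and the highest also to mLFD, so mHFD lay inside the mLFD range. By slide, the difference was negative on slides 1, 2 and 3, down to -0.29 on slide 3, and positive on slides 4 and 5.

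Nos3 encodes endothelial nitric oxide synthase. Its brighter probe ran from -0.0011 to 0.40 in mHFD (median 0.23) and from -0.17 to 0.21 in mLFD (median 0.036). Of 10 mHFD arrays, 6 lay above the highest mLFD array, and the lowest mHFD array lay within the mLFD range. The means were 0.24 ± 0.12 (SD, n = 10) and 0.045 ± 0.12 (SD, n = 10), a difference of 0.19 (SE 0.055, 95% interval 0.078 to 0.31), or 1.14-fold with an interval of 1.06 to 1.24. The unadjusted limma p was 0.0021, at rank 44, and the adjusted p was 0.68.

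The Nos3 mean was higher in mHFD on each slide, by 0.11 on slide 3 to 0.34 on slide 5. The share of all tested probes higher on every slide is not given here. The second Nos3 probe, printed as 10 spots and starting 402 bases away, gave 0.060 (SE 0.044, unadjusted limma p = 0.19, adjusted p = 0.76). Only 1 mHFD array of that probe lay above its highest mLFD array. The mean of both probes differed by 0.13, and the scanner's own log ratio for the brighter probe by 0.11, each less than the main value by over 1.5 times.

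Vegfa encodes the ligand that drives capillary growth. Its brighter probe, on the minus strand at chr17:46154387-46154446, ran from -0.25 to 0.63 in mHFD (median 0.12) and from -0.38 to 0.29 in mLFD (median -0.081). Apart from 1 high mHFD array the groups largely overlapped. The difference was 0.18 (SE 0.099, 95% interval -0.023 to 0.39, unadjusted limma p = 0.079, adjusted p = 0.70), or 1.13-fold with an interval of 0.98 to 1.31. It was positive on 4 slides and -0.081 on slide 4, and without slide 3 it was 0.12.

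The second Vegfa probe ran from -0.12 to 0.61 in mHFD (median 0.25) and from -0.26 to 0.27 in mLFD (median -0.038), with 5 mHFD arrays above the highest mLFD array. Its difference was 0.26 (SE 0.086, 95% interval 0.081 to 0.44, unadjusted limma p = 0.0063, adjusted p = 0.68), or 1.20-fold with an interval of 1.06 to 1.35. It was positive on all 5 slides, from 0.053 on slide 4 to 0.38 on slide 3, and the share of all tested probes that were so is not given here. This probe ran against position: the later position was higher in 2 of 10 pairs of the same group and slide, by -0.32 on average in mHFD and -0.086 in mLFD, and with position as a covariate the difference was 0.16 (unadjusted limma p = 0.077). With the Cy5 channel alone it was 0.41. In the Cy3 pool its signal differed by 0.065 (unadjusted limma p = 0.024).

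**Figure D3:**
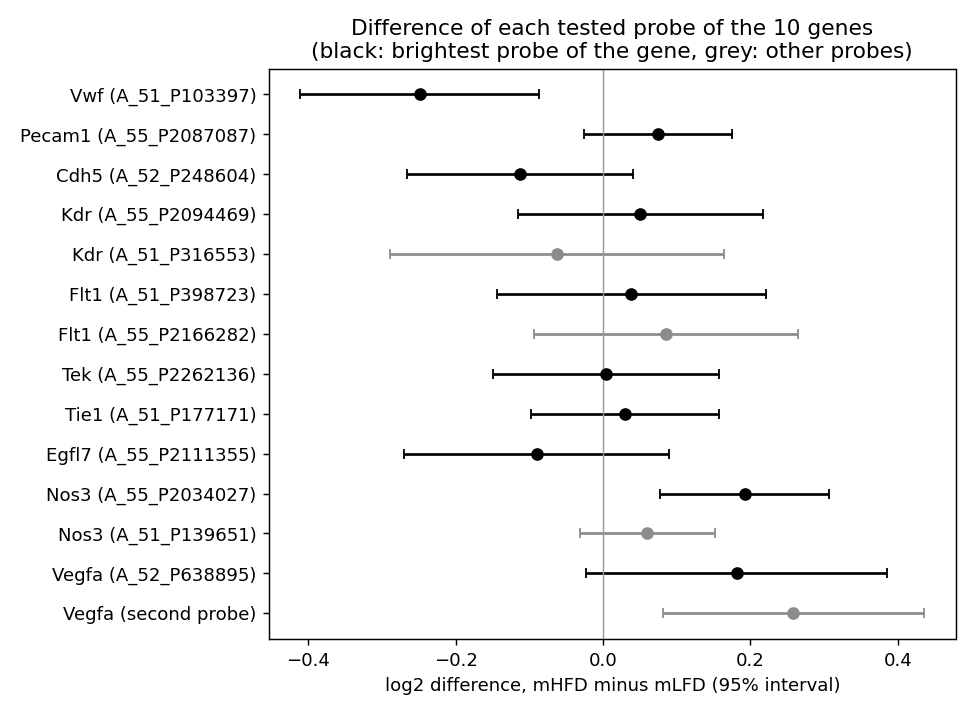
Log2 difference, mHFD minus mLFD (horizontal axis), with its 95% interval for each of the 14 tested probes of the 10 genes, n = 10 per group; the brightest probe of a gene is black and its other probes are grey. The interval of the Vwf probe lies below 0 (-0.41 to -0.087), those of the brighter Nos3 probe (0.078 to 0.31) and the second Vegfa probe (0.081 to 0.44) lie above 0, and the other 11 cross 0.

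Of the 14 tested probes of the members, 3 had an unadjusted limma p under 0.05, and 0 passed adjusted p 0.05. Of all tested probes 7.14% had such an unadjusted p in the ratio, and 8.17% in the Cy3 pool alone. By brightest probe, 3 of the 10 genes had negative differences, Vwf, Cdh5 and Egfl7, where 49.6% of all 15303 genes and 48.4% of all tested probes did. The median of the 8 comparison genes was 0.034, against 0.00083 for the brightest probes of all genes. The spread between mice of a group, as an SD on the log2 scale, was 0.24 for Vegfa, 0.21 for Flt1 and Egfl7 and 0.18 for Vwf, against a median of 0.14 over all genes.

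Over the 20 arrays, after the group means had been subtracted, Vwf varied most like C630016N16Rik (Pearson r = 0.79), Sema5a (0.78), Atat1 (0.76), Ppm1h (0.75) and Mpp1 (0.74) among 15302 genes, given as a description of arrays that share slides and positions. The group differences of these genes, -0.016, -0.00070, 0.050, 0.045 and -0.14 in that order, were smaller than that of Vwf. Of the members, Cdh5 was the most like Vwf (r = 0.58, at the 99.1 percentile of all genes), and Cdh5 too was higher at the later position in 7 of 10 pairs. For Cdh5 these were 5 of 5 pairs in mHFD and 2 of 5 in mLFD, against 4 of 5 in each group for Vwf. The other 8 members had r between -0.20 (Kdr) and 0.15 (Nos3).

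Further genes of these pathways were read from 19 lists with 213 different genes, of which 175 were measured. Among them 17 genes had an unadjusted limma p under 0.05 (9.71%), 10 higher and 7 lower in mHFD, and 0 passed adjusted p 0.05. Of all tested probes 7.14% had such an unadjusted p in the ratio, and 8.17% in the Cy3 pool alone. These are shares of probes, of which some genes have several, and the share over all genes by brightest probe is not given here. The lowest adjusted p of the genes named from these lists was 0.68, so none is described as changed. The counts of higher and lower genes in each list stand beside 49.6% lower among all 15303 genes by brightest probe. Of 72 of these genes followed through the other settings, 35 had the other sign in at least 1 of them, and Myh4 was the only one of these with an unadjusted p under 0.05 in the reported fit.

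Among the other VEGF family ligands, 3 of 4 had negative differences: Vegfb, whose product acts through FLT1, was at -0.071, Vegfc, a ligand of the lymphatic receptor, at -0.099 and Figf (Vegfd) at -0.10, while placental growth factor Pgf was at 0.054 (0.19 with Cy5 alone). Of 10 measured co-receptors and signalling genes of the VEGF receptors 1 had an unadjusted limma p under 0.05: Plcg1, a phospholipase that KDR activates, was at -0.24 (SE 0.11, p = 0.048), and its other probe was at -0.024. The neuropilins Nrp1 and Nrp2, co-receptors for VEGF, were at -0.068 and -0.030, with a second Nrp2 probe at -0.21. With Cy5 alone Nrp1 was at -0.38. The adaptor gene Shb was at -0.067. In the angiopoietin and TIE list, with 9 measured genes, the ligands Angpt1 and Angpt2 were at 0.15 and -0.018, the phosphatase gene Ptprb at 0.034 and the adaptor gene Dok2 at 0.040. The lipase inhibitor Angptl4 was at 0.44 (SE 0.19, unadjusted limma p = 0.029), the only gene of that list with an unadjusted p under 0.05.

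Junction and surface genes of endothelium gave 0 of 16 with an unadjusted limma p under 0.05 and 0 past the adjusted threshold, with 10 lower and 6 higher. The tight-junction gene Cldn5 was at -0.12, the adhesion genes Esam and Icam2 at -0.11 and -0.096, and the sialomucin gene Emcn at 0.0034 (-0.17 with Cy5 alone). Of 18 transcription factors of endothelium, 8 were higher and 10 lower. The flow-responsive factor Klf4 was at 0.21 (SE 0.088, unadjusted limma p = 0.024) and the haematopoietic and endothelial factor Lyl1 at -0.28 (SE 0.13, p = 0.043). The ETS factors Erg and Fli1 were at -0.038 and -0.015, and Sox17 and Sox18 at 0.016 and 0.072.

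Genes of Weibel-Palade bodies and haemostasis, the cell biology closest to Vwf, gave 7 higher and 7 lower of 14 measured, with a median of -0.0052, 0 with an unadjusted limma p under 0.05 and 0 past the adjusted threshold. The list held 21 genes, so these counts cover only part of it. Among those not measured were Selp and Rab27a, above background on 4 arrays each, Stxbp5 on 1, and F8 and Adamts13 on 0. The anticoagulant receptors Thbd and Procr were at 0.18 and 0.088, and Tfpi, an inhibitor of tissue factor, at -0.027 (-0.20 with the scanner's log ratio). The plasminogen activator Plat was at -0.073. Regulators of endothelial nitric oxide synthase and targets of nitric oxide gave 5 higher and 8 lower of 13, also with 0 at either threshold. Among these, caveolin Cav1 was at 0.057, Nosip at -0.12 and Ddah2, which degrades an inhibitor of the synthase, at -0.10. Its relative Ddah1 was at -0.016, with a second probe at 0.065.

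Hypoxia genes and regulators of VEGFA were higher for 11 of 17 and lower for 6, with a median of 0.022, where 49.6% of all genes were lower. Ppargc1a, the coactivator PGC-1α that induces Vegfa in muscle, was at 0.34 (SE 0.13, unadjusted limma p = 0.014), with its other probe at 0.28, and its nuclear receptor partner Esrra was at 0.17 (SE 0.080, p = 0.050). The hypoxia-inducible factors Hif1a and Epas1 were at -0.0059 and 0.10, their partner Arnt at -0.057 (0.10 for its second probe) and Vhl, which targets them for destruction, at 0.020. Of 9 inhibitors of angiogenesis, Tnmd, the tendon protein tenomodulin, was at -0.15 (SE 0.069, unadjusted limma p = 0.036), and the thrombospondins Thbs1 and Thbs2 were at 0.048 and -0.097. Vasohibin Vash1 was at 0.022, and at -0.51 with Cy5 alone (unadjusted limma p = 0.010, adjusted p = 0.65). Col18a1, the source of endostatin, was at -0.033, with a second probe at 0.085.

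Notch genes of vessels were higher for 7 of 9 and lower for 2, where 49.6% of all genes were lower. Notch4, the endothelial Notch receptor, was at 0.14 (SE 0.049, unadjusted limma p = 0.0086) and the ligand Jag2 at 0.097 (p = 0.049), while Dll4, Jag1 and Notch1 were at -0.049, 0.034 and 0.029. With Cy5 alone Jag2 was at 0.20, Dll4 at -0.18 and Notch1 at -0.089. Among 11 artery and vein genes, Nr2f2, the vein factor COUP-TFII, was at 0.15 (SE 0.046, unadjusted limma p = 0.0043, adjusted p = 0.68). The artery ligand Efnb2 and its vein receptor Ephb4 were at 0.015 and 0.036, and the connexin gene Gja4 at -0.069. In the list of tip and stalk cells of vessel sprouts, the peptide gene Apln was at 0.18 (p = 0.035), the netrin receptor Unc5b at -0.16 (p = 0.046), the tip cell gene Esm1 at 0.11 and Pdgfb, which recruits pericytes, at -0.034. Apln was also the only gene of the 15 on capillary lipid handling with an unadjusted limma p under 0.05. Gpihbp1, which carries lipoprotein lipase across capillaries, was at 0.058, Lpl at 0.040, Cd36 at -0.044 and Fabp4 at -0.13.

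**Figure D4:**
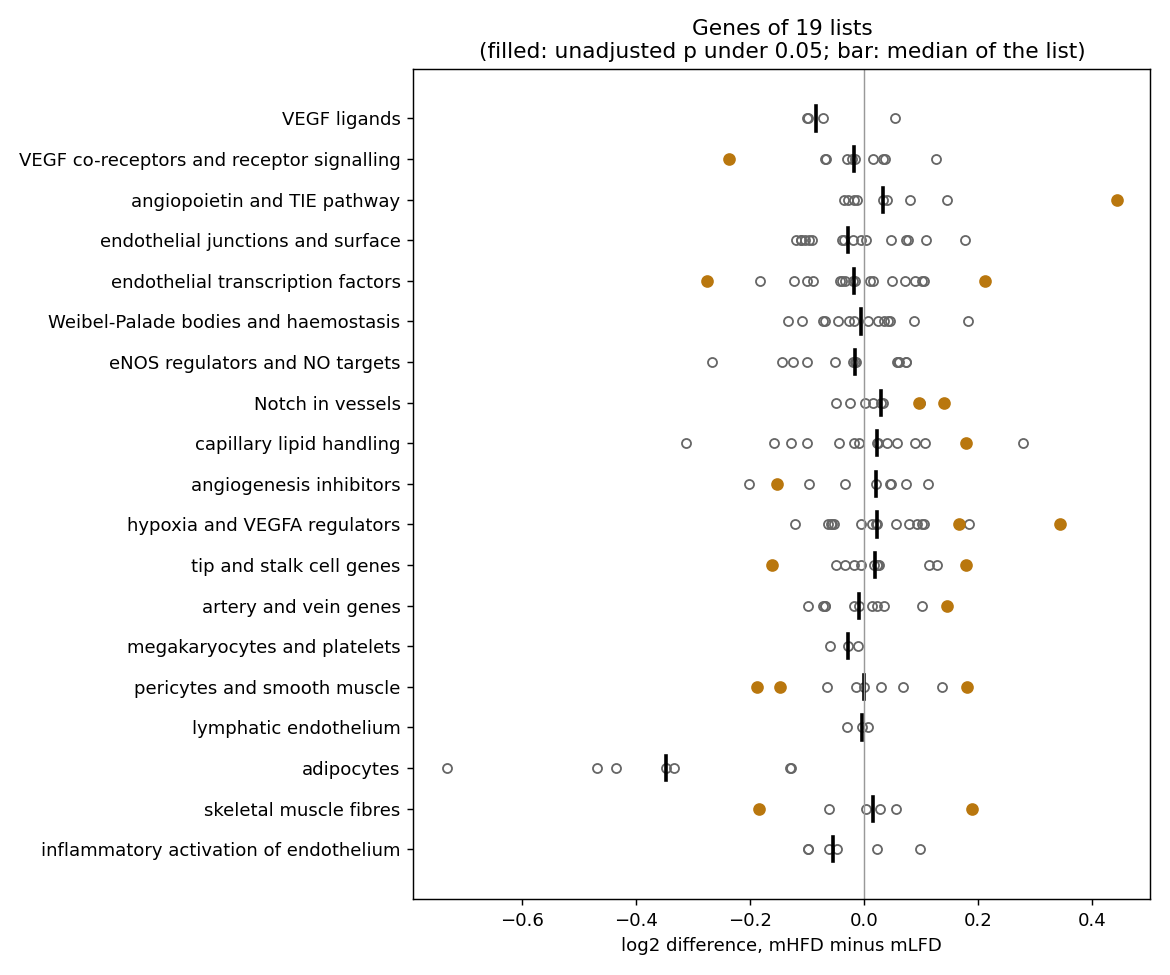
Log2 difference, mHFD minus mLFD (horizontal axis), of each measured gene of the 19 lists (vertical axis), by brightest probe; filled points have an unadjusted limma p under 0.05 and the bar is the median of a list. Most points lie within 0.2 of 0, and the adipocyte list stands lowest, with a median of -0.35.

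Markers of other cells in the muscle are given because Vwf and Vegfa are not made by endothelium alone. Megakaryocytes and platelets also hold von Willebrand factor. Of their 12 markers 6, Itga2b and Gp1ba among them, were above background on 0 arrays, Ppbp on 1, and the 3 measured ones differed by a median of -0.027, with Pf4 at -0.059 and Itgb3 at -0.011. The mean of the measured ones ran from -0.051 to 0.22 in mHFD and from -0.073 to 0.34 in mLFD. Pericyte and smooth muscle genes were higher for 5 and lower for 4 of 9, with Myh11 at 0.18 (unadjusted limma p = 0.014), Cspg4 at -0.19 (p = 0.019) and Notch3 at -0.15 (p = 0.029). The pericyte markers Pdgfrb and Rgs5 were at 0.00070 and -0.064. Their mean ran from -0.31 to 0.12 in mHFD and from -0.25 to 0.063 in mLFD. Of 6 lymphatic markers 3 were measured, Lyve1 at -0.030, Pdpn at -0.0033 (0.019 for a second probe) and Mmrn1 at 0.0076, and the defining factor Prox1 was above background on 0 arrays.

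Adipocyte markers were lower in mHFD for 7 of 7 measured genes, with a median of -0.35, where 49.6% of all genes were lower. None had an unadjusted limma p under 0.05, and 0 passed the adjusted threshold. Adipoq was at -0.33, Plin1 at -0.35, Cidec at -0.43 (-0.053 for its second probe) and Cidea at -0.73. Their mean ran from -1.01 to 0.29 in mHFD and from -1.01 to 0.92 in mLFD, so single mice differed by far more than the groups did. With this mean as a covariate, an alternative added after seeing the data, the Vwf difference was -0.22 (unadjusted limma p = 0.014, adjusted p = 0.82) and Vwf minus the mean of the 8 genes was -0.24 (permutation p = 0.015).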

How the data were processed

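The authors deposited scanner files with Cy5 and Cy3 spot intensity and a log10 ratio, read with Agilent Feature Extraction 10.7.3.1 per the submitters' processing notes; the build is mm9 per the file headers. They also deposited a table of log2 values (19377 rows, median 7.54 in each column) whose scale, centring and direction are not stated. Its gene-centred columns correlated at 0.994 or more with Cy5 corrected by Cy3, and it served as an alternative.

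Here mean intensity was background-corrected (normexp, offset 50) and loess-normalized within arrays. Outlier and 1377 control spots were left out, saturated spots kept, and spots of a probe averaged. Probes whose Cy5 signal was well above background on 10 or more arrays were tested two-sided in limma 3.58.1 (R 4.3.3) with Benjamini-Hochberg adjustment over all tested probes. A gene's main value is its brightest probe. No array was dropped or imputed in the fits reported.

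Members of the lists use names from the files, updated for 27234 probes through RefSeq (GRCm38.p6). The members and lists were chosen with earlier results of these data known. Probe sequences of Vegfa and 1 list gene are not reported here. Named genes were, by rule, the 10 members, the first 4 measured of each list, list genes with an unadjusted p under 0.05 where a list had 5 or fewer, and the 5 genes most like Vwf. The number of arrays limits precision (median SE 0.061). On simulated ratios of 19206 probes, 65% of changes of 0.3 and 91% of 0.6 were recovered, with 8 of 164 calls false. The simulated noise was independent for each probe and array, without effects of slide, position or litter. Its shares therefore do not cover such effects. The changes were also added to many probes at once, which makes the adjusted threshold easier to pass. In the reported fit 1 probe passed, so these shares do not give the chance of finding such a change there. Alternatives covered background, normalization, filters, slide, position, replicate number, array weights and left-out arrays or slides.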

Additional observations from a re-analysis of the deposited data

Results flagged for a closer look

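The Flt1 probe for ENSMUST00000110529 had 1 array apart from the others of its group. In mHFD sample 08 its log2 ratio was 0.67, and the next mHFD array was at 0.28. This gap took up 0.547 of the range of the 10 mHFD arrays, above Dixon's critical value of 0.466. It was the only such case among 30 combinations of gene or probe and group, where chance gives about 1 in 20, or 1.5.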

How the results depend on the processing

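The count of 1 probe past adjusted p 0.05 in limma became 0 with the scanner's log ratio (1112 probes at an unadjusted p under 0.05), median centring (96), scaling between arrays (1150), Cy5 alone (1397), the authors' table (546), slide as a fixed block (1702), position (943), the adipocyte covariate (1158) and without slide 1, 2, 3 or 4 (975 to 1297), and it was 0 to 1 when single arrays were left out. With the replicate number as a block it was 2. No label says that a number marks a shared litter or day. Same-numbered pairs correlated at -0.0072 to 0.36 (median 0.18), with 8 of 10 above 0.1. Of 20 arrays, 7 correlated best with their own number, so part of the data lean towards likeness within pairs. Same-numbered arrays also lay side by side on the same slide. A pairing of mice therefore cannot be told apart from a shared slide and neighbouring positions. The reported fit has no block because not every pair was above 0.1. Under this block the unadjusted limma p of Vwf was 0.0032 (adjusted p = 0.34) and Vwf minus the 8 genes had p = 0.0098 by exact permutation within pairs.

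The Vwf difference kept its sign in all 19 other settings (-0.29 to -0.16, adjusted p 0.34 to 1) and with each array left out (-0.29 to -0.21). Vwf minus the 8 genes kept its sign and a permutation p under 0.05 in all 29 other settings (p 0.0028 to 0.045) and with each array left out (-0.30 to -0.23). All these settings use the same arrays, with Vwf chosen after earlier results were known, so they are not independent evidence. Position entered only as a linear term, so odd against even positions still cannot be told apart from the group. Nos3 and both Vegfa probes kept their sign throughout. With median centring the unadjusted limma p was 0.41 for the brighter Nos3 probe, 0.51 for the brighter Vegfa probe and 0.15 for the second Vegfa probe. Among the members, signs turned for Kdr with the scanner's log ratio (-0.023), Cy5 alone (-0.062), position (-0.034) and the mean of its probes (-0.0058); for Tie1 with the scanner's log ratio (-0.036) and Cy5 alone (-0.0012); for Tek with median centring (-0.0030), without slide 1 (-0.027) or 4 (-0.013) and with the adipocyte covariate (-0.021); for Pecam1 with Cy5 alone (-0.0075); for Flt1 without slide 1 (-0.014) or 4 (-0.018). Among 72 named list genes, 35 had the other sign in at least 1 other setting and 17 with an array left out. Of those with an unadjusted p under 0.05 only Myh4 did (-0.029, Cy5 alone). By more than 1 SD between replicates, 13 values moved: with Cy5 alone Pgf (0.19), Nrp1 (-0.38), Emcn (-0.17), Dll4 (-0.18), Notch1 (-0.089), Jag2 (0.20) and Vash1 (-0.51), with the scanner's log ratio Nrp1 (-0.26), Emcn (-0.17), Tfpi (-0.20), Notch1 (0.14) and Jag2 (0.22), and in the authors' table Notch1 (0.17). Leaving out single arrays gave -0.037 to 0.045 for Tek and -0.0023 to 0.077 for Flt1. The causes were not tested. Pecam1 has no value where all 20 arrays had to be above background.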

Other observations

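Genes of the fibres and of inflamed endothelium complete the picture of the tissue. Of 6 fibre genes Myh4, the fastest myosin heavy chain, was at 0.19 (unadjusted limma p = 0.027, adjusted p = 0.69) and Mylpf, a fast myosin light chain, at -0.18 (p = 0.012, adjusted p = 0.69), while Myh1 was at -0.061. With the Cy5 channel alone Myh4 was at -0.029. Of 10 genes of inflammatory activation of endothelium 6 were measured, 2 higher and 4 lower, with Vcam1 at -0.099, Ccl2 at 0.098, Cx3cl1 at -0.061 and Ackr1 at 0.024. Icam1 and Sele were above background on 0 arrays and Selp on 4.

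Position on the slide moved with other members too. Kdr was higher at the later position in 1 of 10 pairs of the same group and slide, by -0.28 on average in mHFD and -0.058 in mLFD. Cdh5 was higher at position 3 than at position 1 on all 5 slides in mHFD, by 0.23 on average, and at position 4 over 2 on 2 of 5 slides in mLFD, by 0.041. Tie1 and Egfl7 went opposite ways in the groups: 0.12 in mHFD and -0.23 in mLFD for Tie1, and 0.10 and -0.27 for Egfl7. These steps were not tested.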
